A study of Mus musculus with 12 samples.

Results

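Hepatocytes of high and of low lipid content from the same steatotic livers of wild-type (WT) mice were compared by RNA sequencing. The 6 libraries compared came from both fractions, low-fat and high-fat, of 3 WT mice, called WT1, WT5 and WT6 in the labels and mice 1, 2 and 3 here, out of 12 libraries in the series. They were chosen by genotype and fraction, and the libraries of a mouse were joined through its name. The genes compared were the 16563, of 52636 in the table, that reached 10 in 3 or more of the 12 libraries. The other 6 libraries were the same fractions of 3 mice labelled as PTPRK knockout (KO), named for the receptor tyrosine phosphatase gene Ptprk, and served for the spread and for a comparison of genotypes. All groups share the liver as tissue, the steatosis, the separation on a Percoll gradient with differential centrifugation, and the use of polyA RNA. The fractions are therefore defined by how cells sediment and not by a measured amount of fat. Each library is from 1 animal, and the sources used here give no diet, strain, sex or age. Values are reads assigned to a gene per 20 M (mega) reads in the library.

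Steatosis is the storage of triglyceride in droplets inside hepatocytes, and cells of the same liver fill to different degrees. A hepatocyte's gene program also depends on where it lies between the portal vein and the central vein. Periportal cells, supplied with oxygen-rich blood, take up and break down amino acids, make urea and release glucose. Pericentral cells carry glutamine synthetase and most of the cytochrome P450 enzymes of drug and bile acid metabolism. Wnt ligands and R-spondin 3 made by cells of the central vein and the sinusoids maintain the pericentral program. Hepatic stellate cells, which store retinoid and lie along the sinusoid, sinusoidal endothelial cells and Kupffer cells, the resident macrophages, are the main other cell types that a hepatocyte preparation can carry along.

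Estimated depth lay between 18.4 and 25.0 M reads in the 6 WT libraries, and the low-fat libraries were the deepest 3. A level of 3 reads corresponds to 2.40 to 3.26 reads per 20 M, a floor that covers counting error only. Ptprk itself was at 2758, 2883 and 2724 reads per 20 M in the low-fat and 2174, 2578 and 2469 in the high-fat libraries of mice 1 to 3, and between 1117 and 1364 in the 6 KO libraries. Its log2 fold change between the WT fractions was -0.30 (SE 0.077, limma adjusted p = 0.105), which did not pass the test. The 12 hepatocyte markers summed to between 878868 and 1040230 reads per 20 M in the low-fat and between 845638 and 972575 in the high-fat libraries, so that hepatocyte transcripts were abundant in each. On the first principal component of the WT libraries, with 44.5% of the variance, the high-fat libraries had scores of 65.05, 29.8 and -4.284 and the low-fat libraries -29.7, -15.14 and -45.73. The high-fat library of mouse 3 thus lay closest to the low-fat libraries.

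The high-fat fraction carried more RNA of stellate and endothelial cell genes and of several cytochrome P450 enzymes, and less RNA of periportal enzymes. Of the 16563 genes, 169 (1.02%) were called at a limma adjusted p under 0.05, with a term for each mouse, and 116 (0.7%) of them rose while 53 (0.32%) fell. The rises were the larger changes, with a median log2 fold change of 1.82 and a range of 0.51 to 2.80, against a median of -0.72 and a range of -0.42 to -1.41 for the falls. For 140 of the 169 genes the 3 high-fat and the 3 low-fat libraries did not overlap. Among all genes tested, 10.4% had every high-fat library above every low-fat library and 3.51% had the reverse.

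These calls lie at the edge of the threshold: the limma adjusted p-values of all 169 genes fell between 0.0479 and 0.0494, and those of 34 more genes between 0.05 and 0.055. With scaling factors estimated from the genes tested in place of all genes of the table, 0 genes were called (smallest limma adjusted p 0.055, 3213 genes at an unadjusted p under 0.05), and that count was obtained before the one reported here. A fit without the mouse term and fits without any one of the 3 mice also called 0 genes, while a fit of only the 6 WT libraries with the mouse term called 1866, the 169 among them. That fit takes the spread of a gene from 3 mice in place of 6, and its larger count was not taken as firmer. Each of the 169 genes kept its direction in every alternative in which it was tested. Changes of the mouse term, the trend or the moderation leave the estimated fold change as it is, so no direction could change there. Leaving out 1 mouse leaves little room for a reversal where all 3 mice share a direction. The kept directions are therefore no separate support for the calls. In what follows "rose" and "fell" refer to these 169 calls, and each call carries the limma adjusted p range of 0.0479 to 0.0494. Beside any count of calls in a list, the shares of all genes are 0.7% for rises and 0.32% for falls.

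**Figure D1:**
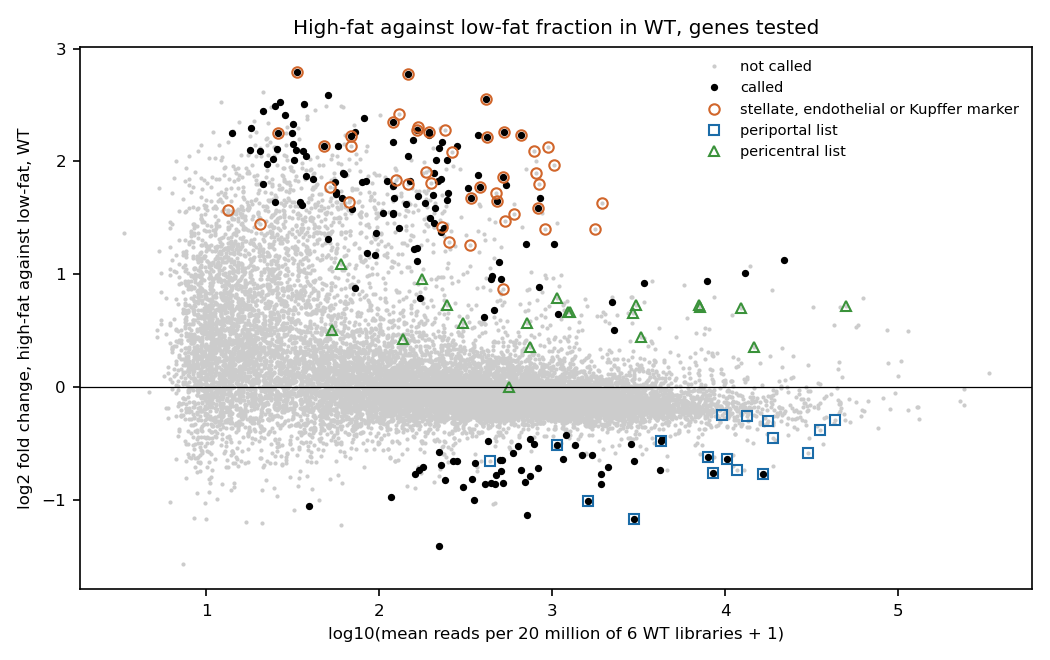
Log2 fold change of the high-fat against the low-fat fraction in WT (vertical axis) against the log10 mean level over the 6 WT libraries in reads per 20 M (horizontal axis), 1 point per gene tested; called genes are black. Stellate, endothelial and Kupffer markers (circles) all lie above 0, the 17 periportal genes (squares) all lie below 0, and 19 of 20 pericentral genes (triangles) lie above 0.

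Periportal genes were lower in the high-fat fraction, and 8 of the 17 tested fell, against 0.32% of all genes. All 17 had a lower value in the high-fat library of each mouse, as had 31.8% of all genes. For 12 every high-fat library was below every low-fat library, as for 3.51% of all genes. The median log2 fold change of the list was -0.59, against -0.04 for all genes, with medians of -0.56, -0.57 and -0.50 in mice 1 to 3. Aldh1b1 (ENSMUSG00000035561), a mitochondrial aldehyde dehydrogenase, had 4500, 3597 and 4117 reads per 20 M in the low-fat and 1666, 1889 and 2175 in the high-fat libraries. It fell by 1.17 on the log2 scale (SE 0.20), the largest fall among protein-coding genes named here. Hal, histidine ammonia-lyase and the first enzyme of histidine breakdown, had 19730, 21058 and 20254 reads per 20 M in the low-fat and 11360, 12904 and 13722 in the high-fat libraries. Its 3 low-fat libraries were within a narrow range and well above all 3 high-fat libraries, and its log2 fold change was -0.77 (SE 0.11). Cdh1, the adhesion protein E-cadherin, had 3692, 1396 and 1393 reads per 20 M in the low-fat and 1668, 740 and 833 in the high-fat libraries. Mouse 1 was high in both fractions, so the libraries overlapped across mice although the value fell in each mouse (log2 fold change -1.01, SE 0.14). Etnppl, which breaks down phosphoethanolamine, had 9396, 13906 and 8413 reads per 20 M in the low-fat and 5711, 8587 and 5424 in the high-fat libraries (log2 fold change -0.76, SE 0.090), again with mouse 2 high in both. The other calls of the list were Gldc, of the glycine cleavage system (-0.64), Sds, serine dehydratase (-0.62), the protease Ctsc (-0.52) and the lysophospholipid transporter Mfsd2a (-0.48). Urea cycle enzymes on the list did not pass, among them Ass1 at -0.29 and Otc at -0.25 (limma adjusted p = 0.304 and 0.266).

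Further falls outside the periportal list included transporters, receptors and enzymes of hepatocytes. Slc3a1, the heavy chain of a cystine and dibasic amino acid transporter, had 2732, 2105 and 2409 reads per 20 M in the low-fat and 1378, 1245 and 1602 in the high-fat libraries (log2 fold change -0.86, SE 0.14). Atp2b2, a plasma membrane calcium pump, had 1300, 937 and 678 and then 515, 482 and 370 (-1.13, SE 0.16). All 3 high-fat libraries lay below the low-fat libraries for both genes. Esr1, estrogen receptor alpha, was the 1 call among 12 nuclear receptor genes, with 1027, 944 and 808 reads per 20 M in the low-fat and 554, 579 and 556 in the high-fat libraries (-0.79, SE 0.10). The RNA-binding protein gene Igf2bp2 (-0.98), the poly(A) polymerase gene Fam46c (-1.004), Olfm3 (-0.89) and Gm4956 (-0.86) completed the largest falls. Mup-ps20, annotated as a pseudogene of the major urinary proteins, had 787, 51 and 43 reads per 20 M in the low-fat and 408, 15 and 15 in the high-fat libraries (-1.41, SE 0.19). Mouse 1 exceeded the other mice in both fractions, and reads of this pseudogene may be shared with the near-identical Mup genes. Sox9, a factor of cholangiocytes and of hepatocytes next to the portal tract, fell by 0.58 and was the 1 call among the 4 genes of the cholangiocyte list that were tested.

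Pericentral genes lay on the other side of 0, but none of the 20 tested was called. In the fit of only the 6 WT libraries 15 of the 20 were called, next to 14 of the 17 periportal genes, and 2 of the 20 were called with the deposited scaling or with a same-mouse correlation. Over all 16563 genes these fits called 1866, 173 and 383. Their fold changes were above 0 in 19 of 20, as for 43.3% of all genes, and values were higher in the high-fat library of all 3 mice in 17 of 20, against 21.1% of all genes. The median log2 fold change was 0.66, with medians of 0.87, 0.81 and 0.31 in mice 1 to 3. For 9 genes every high-fat library was above every low-fat library, as for 10.4% of all genes. Cyp2e1, the ethanol-oxidizing P450, had 25608, 38077 and 47248 reads per 20 M in the low-fat and 56368, 63448 and 68163 in the high-fat libraries (log2 fold change 0.72, SE 0.15, limma adjusted p = 0.070). Each high-fat library of Cyp2e1 was above each low-fat library. Glul, glutamine synthetase and the marker of the last cell layer around the central vein, had 10414, 8454 and 20084 and then 13589, 16088 and 19810 reads per 20 M (0.35, SE 0.25, limma adjusted p = 0.445). It was higher in mice 1 and 2 and level in mouse 3, whose low-fat library was already the highest of all 6.

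Cytochrome P450 genes, counted without those of the pericentral list, included 3 rises and 1 fall among 19 tested, with a median of 0.36. Cyp3a11 (ENSMUSG00000056035), the main drug-metabolizing P450 of its subfamily in mouse liver, had 10052, 10689 and 20486 reads per 20 M in the low-fat and 32572, 23095 and 35675 in the high-fat libraries. It rose 2.18-fold (log2 fold change 1.12, SE 0.19), and all 3 high-fat libraries were above all 3 low-fat libraries. Cyp2c29 (ENSMUSG00000003053) had 4786, 10148 and 10819 and then 12998, 20769 and 18792 reads per 20 M (log2 fold change 1.01, SE 0.16), also without overlap. Cyp2c37 had 1134, 2407 and 3581 and then 3022, 4467 and 5820 (0.92, SE 0.15), and here the high-fat library of mouse 1 lay below the low-fat library of mouse 3. Mouse 1 had the lowest low-fat value and the largest difference for all 3 genes. Cyp39a1, an oxysterol 7-alpha-hydroxylase of bile acid synthesis, fell by 0.86 (SE 0.15), from 526, 591 and 648 to 256, 338 and 459 reads per 20 M. Outside the lists, and chosen after their values were seen, the related Cyp3a16 (1.67), Cyp2a4 (1.17) and Cyp2c38 (0.96) rose, as did the fatty aldehyde dehydrogenase Aldh3a2 (0.94). Genes of these P450 subfamilies are near-identical copies, and how reads were divided among them is not given in the sources used here.

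The 250 bases before the start of the 3 listed P450 genes that rose and of Hal, which fell, are printed here because these are genes of opposite direction with motifs of liver factors close to their start. Capitals mark CAAAGTC, part of the site of the hepatocyte nuclear factor HNF4, and CTTTGAT, or its reverse complement, the core bound by the TCF/LEF factors through which Wnt signals act. Sequences are from RefSeq on GRCm38.p6, written 5′ to 3′ in the direction of the gene.
Cyp3a11: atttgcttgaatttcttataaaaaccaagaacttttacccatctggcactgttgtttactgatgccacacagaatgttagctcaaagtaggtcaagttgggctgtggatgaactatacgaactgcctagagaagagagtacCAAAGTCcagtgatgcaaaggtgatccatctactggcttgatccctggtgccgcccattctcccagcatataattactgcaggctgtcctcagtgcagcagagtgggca
Cyp2c29: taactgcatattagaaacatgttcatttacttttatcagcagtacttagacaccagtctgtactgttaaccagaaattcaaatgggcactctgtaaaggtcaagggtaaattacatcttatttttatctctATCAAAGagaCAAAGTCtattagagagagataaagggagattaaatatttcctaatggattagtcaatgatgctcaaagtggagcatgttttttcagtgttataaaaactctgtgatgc
Cyp2c37: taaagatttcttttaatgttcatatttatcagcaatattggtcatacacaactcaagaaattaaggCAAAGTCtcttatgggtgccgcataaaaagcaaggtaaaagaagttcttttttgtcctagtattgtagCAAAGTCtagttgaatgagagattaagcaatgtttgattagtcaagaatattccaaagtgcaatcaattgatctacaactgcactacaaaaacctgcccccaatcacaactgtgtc
Hal: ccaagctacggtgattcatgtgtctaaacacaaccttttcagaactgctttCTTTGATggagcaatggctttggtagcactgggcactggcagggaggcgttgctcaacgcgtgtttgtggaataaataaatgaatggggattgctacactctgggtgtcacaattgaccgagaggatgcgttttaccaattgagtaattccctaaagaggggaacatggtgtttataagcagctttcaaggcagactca
The windows lie at chr5:145879855-145880104 on the minus strand, chr19:39286835-39287084 on the plus strand, chr19:39992174-39992423 on the plus strand and chr10:93488518-93488767 on the plus strand. Positions are counted back from the start, with -1 the last base before it. CAAAGTC begins at -109 in Cyp3a11 and in Cyp2c29, and at -184 and -116 in Cyp2c37. CTTTGAT begins at -199 in Hal, and its reverse spans -119 to -113 in Cyp2c29. Both motifs contain CAAAG on one strand and can overlap. Among 32851 mouse windows of 250 bases, 3.84% hold CAAAGTC and 3.21% hold CTTTGAT on either strand. A window was listed for 111 of the 169 called genes: CAAAGTC was found in 8 of 78 genes that rose and 1 of 33 that fell, and CTTTGAT in 2 of 78 and 3 of 33. A gene was counted if any of its windows held the motif, so these counts and the shares per window have unlike units. Several motifs were searched, and these motifs and genes were picked after the matches were seen, so the matches are a description only.

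**Figure D2:**
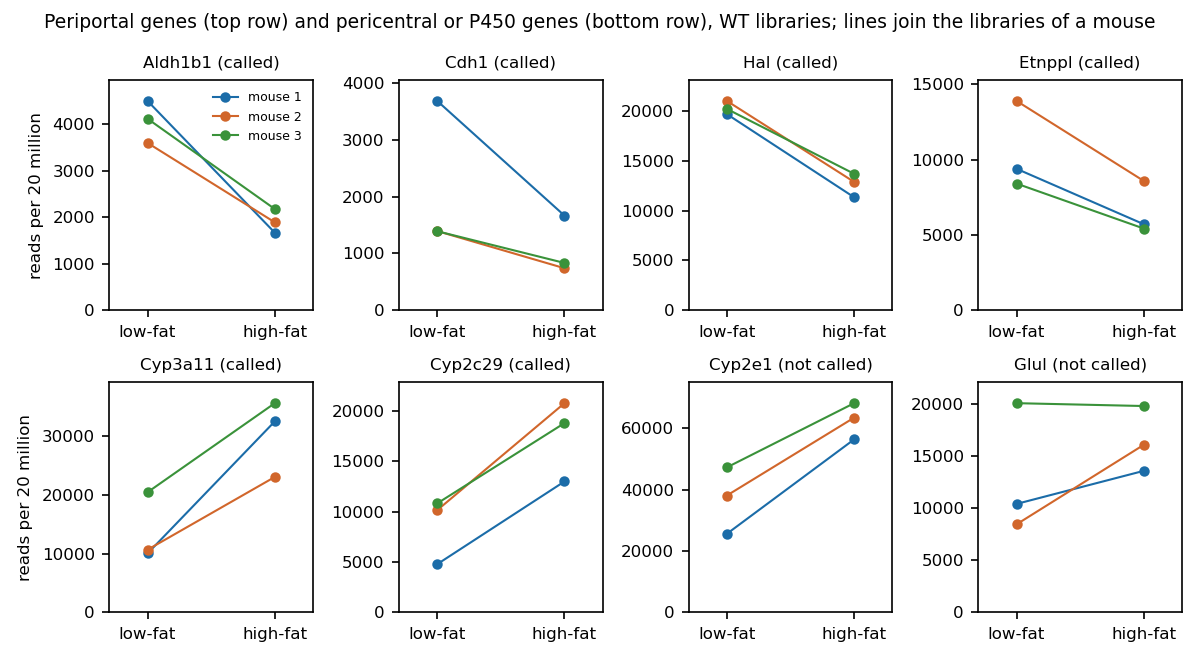
Reads per 20 M (vertical axes, from 0) in both fractions of each WT mouse, joined by a line, for 4 periportal genes (top) and 4 pericentral or P450 genes (bottom). Every line falls for the periportal genes and rises for Cyp3a11, Cyp2c29 and Cyp2e1; for Glul the line of mouse 3 is level.

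Genes of lipid handling did not move as a block. Of 17 lipid droplet protein genes tested, 0 were called, 7 had a fold change above 0 and 10 below, and the median was -0.15. The 12 hepatocyte markers had a median of -0.15 as well, and all 12 were below 0. Only WT libraries in the fit gave 7 calls among the droplet genes, 12 of 20 in de novo lipogenesis and 9 of 21 in glycolysis, where the reported fit gave 0. That fit called 1866 of all 16563 genes. Plin2, the perilipin that coats most hepatocyte droplets, had 12353, 10805 and 12753 reads per 20 M in the low-fat and 10738, 9773 and 12665 in the high-fat libraries (log2 fold change -0.20, SE 0.13, limma adjusted p = 0.406). The groups overlapped for Plin2. Hsd17b13, a droplet-bound dehydrogenase, had 9475, 9698 and 11478 and then 6040, 6046 and 9410 reads per 20 M (-0.62, SE 0.14, limma adjusted p = 0.084), and all 3 of its high-fat libraries were below the low-fat libraries. Plin4 (1.02), Fitm1 (1.15) and Cidec (0.76), picked after their values were seen, were the members with the highest fold changes, with limma adjusted p-values of 0.098, 0.096 and 0.084.

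Calls among lipid genes were few and concerned regulators and fatty acid entry or turnover. Pparg, the nuclear receptor that drives fat storage genes, had 68, 92 and 113 reads per 20 M in the low-fat and 215, 191 and 270 in the high-fat libraries, and rose 2.34-fold (log2 fold change 1.22, SE 0.21). The fractions did not overlap, and the difference was 1.50, 1.03 and 1.14 on the log2 scale in mice 1 to 3. Lpl, the lipase that frees fatty acids from circulating lipoproteins, had 939, 225 and 476 reads per 20 M in the low-fat and 2976, 570 and 991 in the high-fat libraries (1.27, SE 0.23). Mouse 1 was above the others in both fractions, so the libraries overlapped. Lpl is made by macrophages as well as by other cells, and the Kupffer marker sum given below was also highest in the high-fat library of mouse 1. The share of those cells in the Lpl value was not tested. Marker sums of stellate, endothelial and Kupffer cells, given below, were higher in the high-fat library of each mouse. Their share in the Pparg value was not tested either. Acot1, an acyl-CoA thioesterase (0.68, SE 0.12), and Vnn1, a pantetheinase (0.65, SE 0.11), rose and are both textbook targets of the fatty acid sensor PPAR alpha. Acot1 had 173, 371 and 505 reads per 20 M in the low-fat and 358, 543 and 820 in the high-fat libraries. Vnn1 had 638, 795 and 1023 and then 1156, 1209 and 1691. The other 24 of 26 genes of fatty acid oxidation and ketogenesis were not called, and the median of the list was -0.07, a value that turned to 0.01 with the deposited scaling alone. Acot1 may share reads with near-identical neighbouring thioesterase genes.

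Most genes of fat synthesis and secretion had values slightly lower in the high-fat fraction, and so had the hepatocyte markers, with a median of -0.15. Whether the lists below differ from the hepatocyte markers was not tested. Among 20 genes of de novo lipogenesis, 0 were called, 17 had a fold change below 0, as had 56.7% of all genes, and the median was -0.34. Fasn, fatty acid synthase, had 66482, 42775 and 17423 reads per 20 M in the low-fat and 37248, 43964 and 12577 in the high-fat libraries (log2 fold change -0.50, SE 0.21, limma adjusted p = 0.242). It spread over mice by more than between fractions, and mouse 2 showed no fall. Scd1, the stearoyl-CoA desaturase, had 264450, 228911 and 203998 and then 243241, 237028 and 194062 (-0.13, SE 0.25, limma adjusted p = 0.788). Tm6sf2, which helps to load lipid onto very-low-density lipoprotein, fell by 0.74 (SE 0.12), from 702, 913 and 797 to 389, 597 and 560 reads per 20 M, without overlap. It was the 1 call among 12 genes of apolipoproteins and lipoprotein assembly, whose median was -0.19. For 6 of the 12 every high-fat library was below every low-fat library, as for 3.51% of all genes and 2 of the 12 hepatocyte markers. Cholesterol synthesis had 0 calls among 19 genes, 17 of them below 0, with a median of -0.22.

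Carbohydrate genes showed 0 calls, and their medians stand beside -0.15 for the hepatocyte markers. The 21 glycolysis genes had a median of -0.16, and Gapdh, glyceraldehyde-3-phosphate dehydrogenase, was at 18883, 16169 and 16962 reads per 20 M in the low-fat and 14864, 14658 and 14799 in the high-fat libraries (log2 fold change -0.31, SE 0.14, limma adjusted p = 0.267). All 3 high-fat libraries of Gapdh were below the low-fat libraries, although the fitted difference did not pass. The same held for 8 of the 21 glycolysis genes, Gapdh among them, as for 3.51% of all genes and 2 of the 12 hepatocyte markers. For 3 of the 21 every high-fat library was above every low-fat library, as for 10.4% of all genes. For 9 gluconeogenesis genes the median was -0.31, with 8 of 9 below 0 in all 3 mice, as held for 31.8% of all genes. Pck1, the cytosolic phosphoenolpyruvate carboxykinase, had 67892, 49243 and 54225 and then 63421, 40170 and 43815 reads per 20 M (-0.31, SE 0.14, limma adjusted p = 0.275).

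Genes of stellate cells and pericytes stood among the largest rises, and 12 of 14 markers were called, against 0.7% of all genes that rose. All 14 were higher in each mouse and had no overlap between fractions, as held for 10.4% of all genes, and the median log2 fold change was 2.26, with 2.41, 2.81 and 1.73 in mice 1 to 3. Col3a1 (ENSMUSG00000026043), a fibrillar collagen chain, had 55, 14 and 39 reads per 20 M in the low-fat and 389, 175 and 203 in the high-fat libraries. It rose 6.85-fold (log2 fold change 2.78, SE 0.28). Dcn, the proteoglycan decorin, had 151, 49 and 147 and then 1116, 420 and 591 reads per 20 M (2.56, SE 0.44). Lrat, the enzyme that esterifies retinol for storage in stellate cells, had 30, 28 and 50 and then 256, 199 and 149 (2.35, SE 0.43). For each of these genes the lowest high-fat library was well above the highest low-fat library. Col1a1, with 7, 3 and 9 reads per 20 M in the low-fat and 73, 35 and 68 in the high-fat libraries (2.80, SE 0.41), started near the level of 3 reads, and its fold change depends on the value of 2 added before taking logarithms. Col1a1 also passed the filter only with its high-fat libraries. Reln (2.24), Ecm1 (2.26), Abcc9 (2.28), Rgs5 (2.26) and Col14a1 (2.21) rose to a similar degree. The 14 markers summed to 1166, 499 and 1202 reads per 20 M in the low-fat and 6885, 3665 and 4357 in the high-fat libraries, 5.90, 7.34 and 3.62 times as much within a mouse. In bulk samples, more cells of a type and more RNA per cell cannot be told apart, so these sums do not say how many stellate cells a fraction held.

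Endothelial markers were higher as well, with 5 of 18 called, against 0.7% of all genes that rose. All 18 were higher in each mouse without overlap, as held for 10.4% of all genes. Their median log2 fold change was 1.64 (2.20, 1.56 and 1.03 in mice 1 to 3). Flt4, a receptor of vascular endothelial growth factors, had 224, 172 and 179 reads per 20 M in the low-fat and 1496, 565 and 472 in the high-fat libraries (1.86, SE 0.34). Oit3 (1.78), Clec4g (1.65) and Dnase1l3 (1.59), typical of sinusoidal cells, rose too, and so did Bmp2 (1.68), the endothelial signal for iron sensing in hepatocytes. The marker sum was 5750, 5269 and 5651 reads per 20 M in the low-fat and 30101, 15300 and 11775 in the high-fat libraries. The low-fat sums were close together, while the high-fat sums spread widely, with mouse 1 highest.

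Kupffer cell markers had a median of similar size, 1.91, but 0 of 13 were called. In the fit of only the 6 WT libraries, with the spread taken from 3 mice, all 13 were called. All 14 stellate and all 18 endothelial markers were called there too, so whether calls set the 3 lists apart depends on the fit. That fit called 1866 of all 16563 genes. Each of the 13 was higher in the high-fat library of every mouse and had no overlap between fractions, as held for 10.4% of all genes. Clec4f, a lectin found on Kupffer cells, had 239, 285 and 134 reads per 20 M in the low-fat and 2955, 584 and 499 in the high-fat libraries (log2 fold change 2.10, SE 0.63, limma adjusted p = 0.144). Cd5l had 255, 391 and 183 and then 3356, 736 and 737 (2.12, SE 0.56, limma adjusted p = 0.110). Mouse 1 stood far above the other mice in the high-fat fraction for both genes, and the median of the list was 3.38, 0.77 and 1.78 in mice 1 to 3. Fcna, a ficolin of macrophages outside the list, did rise, from 86, 51 and 27 to 697, 147 and 157 reads per 20 M (2.23, SE 0.37). The 10 markers of recruited macrophages and monocytes summed to 374, 545 and 445 reads per 20 M in the low-fat and 1409, 608 and 627 in the high-fat libraries. The sum was again higher in each mouse, but of the 7 members tested 4 were, against 21.1% of all genes, and Cd9 was lower in each. In mouse 2 Lyz2 alone went from 198 to 254. The sum of the 5 erythroid markers went the other way, from 3669, 3093 and 3096 to 2866, 2194 and 2610, and was mostly that of Alas2, an enzyme of heme synthesis. Alas2 was the 1 member of the 4 tested that was lower in each mouse, and Hbb-bs went from 40 to 128 in mouse 1. Of the adipocyte list, Adipoq, Lep and Plin1 were listed at 0 in all 6 libraries, while Cfd, the complement protease adipsin and the 1 member tested, had 144, 40 and 165 and then 432, 138 and 432 reads per 20 M (log2 fold change 1.48, SE 0.33, limma adjusted p = 0.077). Neutrophil markers differed in direction between mice, at 10, 66 and 6 and then 122, 23 and 25, mesothelial markers summed to 5 in each low-fat and to between 10 and 26 in the high-fat libraries, and the 9 cholangiocyte markers summed to between 1069 and 1321 reads per 20 M in the low-fat and between 1009 and 1364 in the high-fat libraries.

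**Figure D3:**
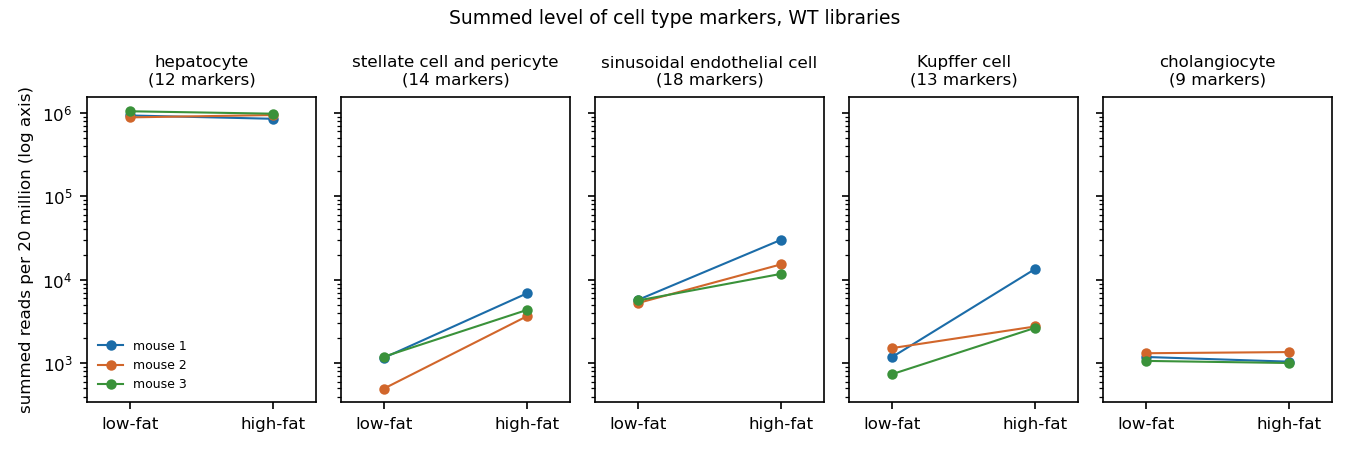
Summed reads per 20 M (log axis) of the markers of 5 cell types in both fractions of each WT mouse, joined by a line. The sums of stellate, endothelial and Kupffer markers rise in all 3 mice, while the hepatocyte sums stay between 845638 and 1040230 and the cholangiocyte sums between 1009 and 1364.

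Genes of the extracellular matrix were mixed, with called members that all rose. Among 14 further collagen chains, Col5a1 (2.39), Col16a1 (2.09), Col6a2 (1.80) and the basement membrane chain Col4a1 (0.88) rose and 0 fell, with a median of 0.73. Col16a1 had 10, 3 and 5 and Col6a2 had 8, 7 and 7 reads per 20 M in the low-fat WT libraries. Both passed the filter only with their high-fat libraries, and their fold changes depend on the value of 2 added. The median of the list depends on the filter as well. With a value of 10 or more required in all 6 WT libraries, 10 chains were tested, 7 were above 0 and the median was 0.21. The 3 chains below 0, lower in each mouse and not called, were Col15a1 (-0.58), Col4a5 (-0.35) and Col18a1 (-0.27). Among 18 other matrix genes 4 rose, namely the laminin chain Lamb1 (2.26), the proteoglycan gene Bgn (2.23), Tgfbi (2.12) and Sparc (1.88), against 0.7% of all genes. The median was 1.68, while Vtn (-0.28), Mmp14 (-0.16) and Fn1 (-0.13) lay below 0 and were not called. Bgn, biglycan, had 168, 60 and 152 reads per 20 M in the low-fat and 937, 461 and 455 in the high-fat libraries. Sod3, the extracellular superoxide dismutase, had 88, 15 and 80 and then 343, 165 and 244 (2.19, SE 0.38). In each case mouse 2 had the lowest low-fat value, as it had for the stellate marker sum. Whether these genes rose beyond the markers of the cells that make them was not tested.

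Several secreted signals were among the calls. Rspo3 (ENSMUSG00000019880), the R-spondin that amplifies Wnt signalling around the central vein, had 10, 7 and 9 reads per 20 M in the low-fat and 85, 56 and 49 in the high-fat libraries, and rose 5.70-fold (log2 fold change 2.51, SE 0.33). Its low-fat values were near or below 10, so it passed the filter only with its high-fat libraries. Its log2 fold change depends on the value of 2 added before taking logarithms, and ranged from 1.89 to 2.71 over the alternative fits. Rspo3 was the 1 call among 17 Wnt and R-spondin genes, whose median was 0.07. Ctnnb1, beta-catenin, was at 6657, 5855 and 5755 and then 6014, 5253 and 5791 reads per 20 M (-0.18, SE 0.10, limma adjusted p = 0.348). Hgf, the hepatocyte growth factor, had 38, 33 and 45 reads per 20 M in the low-fat and 286, 161 and 150 in the high-fat libraries (2.17, SE 0.37). Tgfbr3, the TGF-beta coreceptor betaglycan (1.45, SE 0.23), was the 1 call among 15 genes of TGF-beta signalling. Of the activin genes, chosen after their values were seen, Inhba fell by 0.78 (SE 0.11), from 1040, 560 and 201 to 559, 333 and 145 reads per 20 M. Its antagonist Fst fell by 0.83 (SE 0.13), from 504, 335 and 77 to 296, 174 and 52, while Inhbb rose by 1.36 (SE 0.25), from 60, 37 and 49 to 210, 98 and 115. Inhba and Fst had the same order of mice in both fractions, with mouse 1 highest and mouse 3 lowest. As given above, the marker sums of stellate, endothelial and Kupffer cells were higher in the high-fat library of each mouse. The share of those cells in the values of Rspo3, Hgf, Tgfbr3 and Inhbb was not tested.

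The remaining lists held 0 calls, and their mice often differed. The 13 mitochondrially encoded genes were all above 0, with a median of 0.83, but the median was 0.97, 1.42 and -0.03 in mice 1 to 3. In the fit of only the 6 WT libraries 7 were called, where 1866 of all 16563 genes were called. mt-Co1, a cytochrome oxidase subunit, had 57652, 72418 and 75462 reads per 20 M in the low-fat and 103031, 141694 and 72346 in the high-fat libraries (log2 fold change 0.50, SE 0.24, limma adjusted p = 0.287). The high-fat library of mouse 3 was thus no higher than its low-fat library. The nuclear-retained Malat1 had 43007, 72093 and 22017 and then 106548, 82792 and 28576 reads per 20 M (0.55, SE 0.49, limma adjusted p = 0.541). The 7 genes of MHC class II presentation had a median of 1.45, spread over 2.75, 0.42 and 1.37 in mice 1 to 3, an order of mice also seen for the Kupffer markers. Genes of the endoplasmic reticulum stress response had a median of -0.21, with 16 of 18 below 0, while the circadian clock (-0.13), insulin signalling (-0.08), acute phase (-0.16) and lysosomal (-0.06) lists lay near the median of all genes. With the deposited scaling alone the medians of the insulin signalling and lysosomal lists turned to values above 0, at 0.00 and 0.02, and that of the lipases from -0.08 to 0.00. Of the 44 lists, 14 had a called member. The lists held 34 of the 116 genes that rose and 12 of the 53 that fell.

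**Figure D4:**
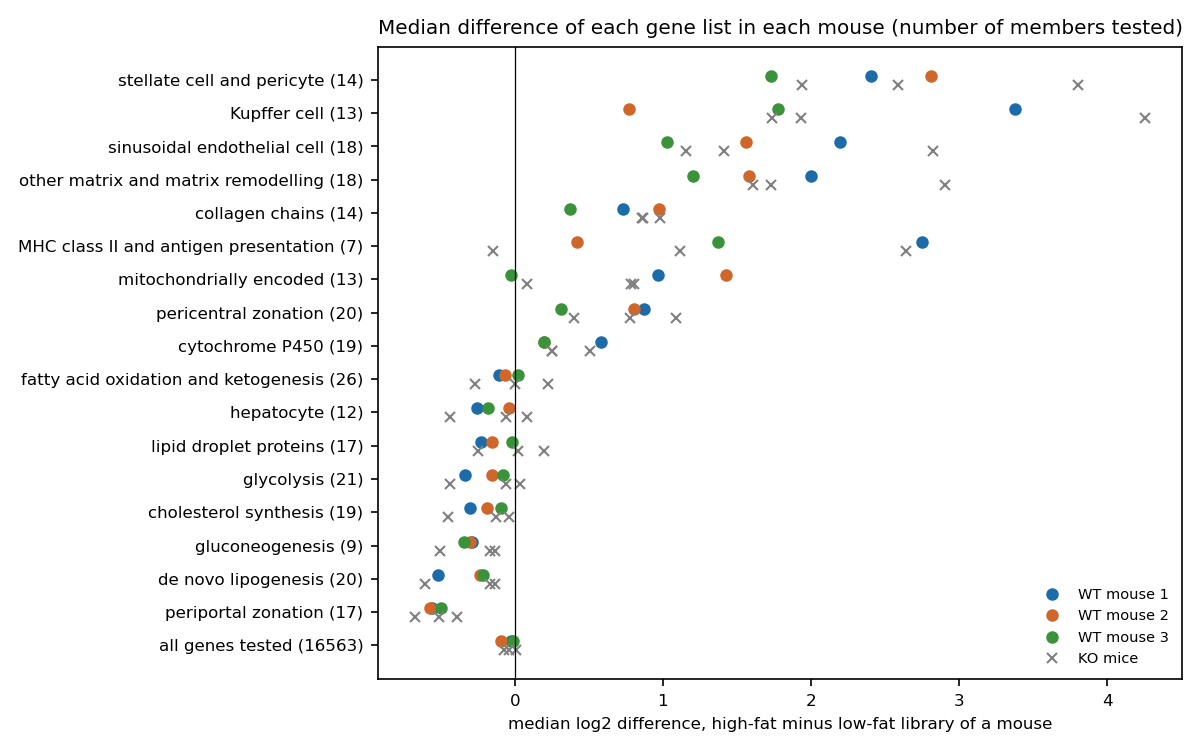
Median log2 difference between the fractions of a mouse (high-fat minus low-fat) over the tested members of each list (number in brackets), for each WT mouse (coloured points) and each KO mouse (crosses). Stellate and endothelial lists lie above 1 and the periportal list lies below 0 in all 3 WT mice, and the Kupffer and mitochondrially encoded lists spread widely over mice.

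KO mice provided the same comparison in other animals, fitted with the same estimate of spread. The 169 genes called in WT all had the same sign in KO and the same sign in each of the 3 KO mice, as had 78.3% and 28.7% of all genes. The KO libraries entered both the filter and the spread behind the WT calls. A gene with a small spread among KO mice was thus more readily called in WT. The shares of all genes are therefore not a like baseline for the 169. Of the 169 genes, 145 were called in KO too, where 354 genes (2.14%) were called in all. The median log2 fold change was 1.82 in WT and 1.87 in KO for the genes that rose in WT, and -0.72 and -0.66 for those that fell. Cyp3a11 stood at 1.12 in both genotypes and Aldh1b1 at -1.17 in both. Lrat was at 2.35 in WT and 2.95 in KO, and Cyp39a1 at -0.86 in WT and -0.54 in KO, where it did not pass (limma adjusted p = 0.129). The test of the difference between the genotypes called 0 genes, with a smallest limma adjusted p of 1 and 64 genes (0.386%) at an unadjusted p under 0.05. Among the 169 genes the median size of the difference between genotypes was 0.15 on the log2 scale. Kif26a was the 1 gene of the 169 with an unadjusted limma p under 0.05 for that difference, at 1.64 in WT and 0.53 in KO. A missed threshold does not show that the fractions of both genotypes differ alike.

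**Figure D5:**
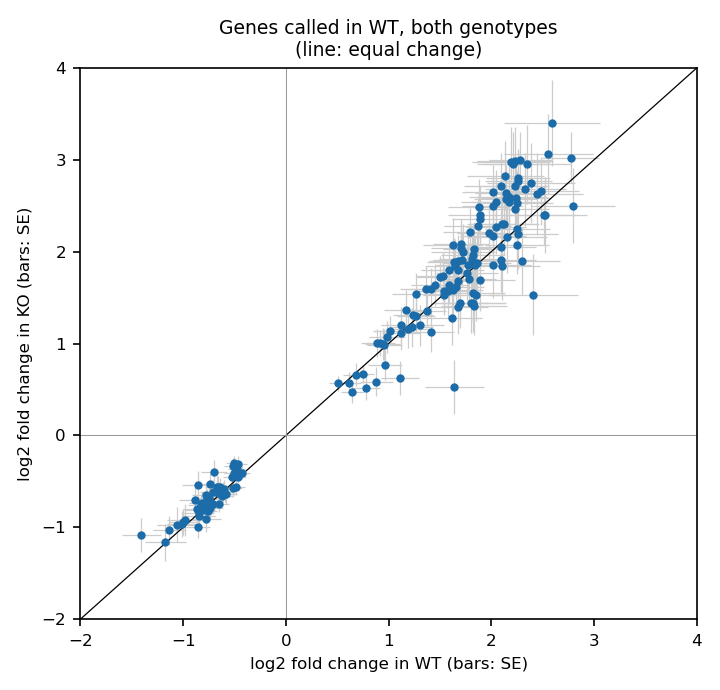
Log2 fold change of the high-fat against the low-fat fraction in WT (horizontal axis) and in KO (vertical axis) for the 169 genes called in WT, with bars of 1 standard error and the line of equal change. All 169 points have the same sign on both axes.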

How the data were processed

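Values were RNA sequencing levels of 52636 genes in 12 polyA libraries from liver cell fractions, per the labels. In the deposited table the unit is a score: the authors scaled the gene reads of each library to 20 M and rounded up, as read from the values, which sum to 20.01 M per library. The submitters' processing notes name the build mm9. The aligner, read counter and annotation are not given in the sources used here. Depth was estimated from the spacing of low values by a method checked on simulated data. In 10 libraries every whole number can be reached, so spacing does not test it there.

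Values were rescaled by the trimmed mean of M values (30% of log ratios and 5% of levels trimmed), with factors from all genes of the table, and taken as log2(value + 2), which understates changes of low genes. Estimating the factors from the genes tested was computed first and gave 0 calls; all genes were then used, to follow an earlier treatment of these data. limma 3.58.1 (R 4.3.3) fitted 12 libraries with a term for each of 6 mice, a fraction effect per genotype and an intensity trend; p-values were two-sided and Benjamini-Hochberg adjusted over 16563 genes, called under 0.05. The labels give both libraries of a mouse its name, the source of the pairing: deviations from group means correlated with r of 0.497, 0.471 and 0.581 within WT mice (mean of different mice -0.258). The chi-square per gene between WT libraries of a group lay between 26.9 and 51.3, so none was a repeat of another.

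Members, the 44 gene lists (622 genes) and tests were chosen with earlier results of these data known. The genes named are Ptprk, the 12 largest rises and 10 largest falls among calls that average 100 or more reads per 20 M and have 1 direction in 3 of 3 mice, and in each list up to 4 calls or, with fewer than 2, the most abundant members; a few of these are not reported here. Simulated data with known changes served to test the fit. Neither the counting rule nor strandedness is given in the sources used here, so reads of overlapping genes cannot be told apart. Promoter windows are those of RefSeq (GRCm38.p6). Matplotlib 3.10.9 drew the figures.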

Additional observations from a re-analysis of the deposited data

How the results depend on the processing

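Against 169 calls in WT, 0 genes were called with no replicate block, that is without the mouse pairing (1902 at an unadjusted p under 0.05), with factors from the genes tested, the scaling that was computed before the reported one (3213), with median-of-ratios scaling (3169), a pseudocount of 0.5 (3124), no filter (4232), or a filter of 10 in all 6 WT libraries (2588). The reported scaling was chosen after the 0 from the genes tested was seen, and the first scaling was then entered as an added alternative. Their smallest limma adjusted p-values lay between 0.0505 and 0.0822. Leaving out mouse 1, 2 or 3 gave 0 calls each, with smallest adjusted p-values of 0.4, 0.311 and 0.0966 and 1234, 1865 and 2536 genes at an unadjusted p under 0.05. Fits without an intensity trend called 3, with a same-mouse correlation 383 (329 rises, 85.9%, against 68.6% of the 169), and with only the 6 WT libraries 1866. Deposited scaling gave 173, a pseudocount of 10 gave 216 and robust moderation 130. For the changes in count the cause was not tested. Deposited scaling moved the median of all genes from -0.04 to 0.04. The difference between genotypes had 0 calls in each alternative that was run (24 to 484 genes with an unadjusted p under 0.05); it cannot be had from WT libraries alone.

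No called gene reversed, which many of these alternatives left little or no room for. Some uncalled genes did: Apob to 0.063 with the deposited scaling, 0.00080 with median-of-ratios and 0.0084 with factors from the genes tested, and with the deposited scaling Clock to 0.0018 and Insr to 0.0049. Dusp1 reached -0.0031 with only WT libraries. Over fits without 1 mouse, Apob ranged from -0.26 to 0.094 (0.078 without mouse 3), Dusp1 from -0.14 to 0.099, Zfp36 from -0.029 to 0.21, Vegfa from -0.071 to 0.24, Insr from -0.24 to 0.011, Neat1 from -0.35 to 0.54, Cd3e from -0.81 to 0.40, Hbb-bs from -1.53 to 0.62, Ces3a from -0.048 to 0.063, Lrp1 from -0.12 to 0.37, Apoe from -0.075 to 0.17 and Bst2 from -0.010 to 0.10.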

Other observations

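Among rises with no place on any list, chosen after their values were seen, were further genes of vessels. Plvap, the protein of endothelial diaphragms, had 124, 56 and 110 reads per 20 M in the low-fat and 711, 308 and 373 in the high-fat WT libraries (log2 fold change 2.14, SE 0.31). Robo4 rose by 1.89 and Flt1, a receptor of vascular endothelial growth factor, by 1.84. Another rise outside the lists, not counted among the genes of vessels, was Cyp26b1, which breaks down retinoic acid. It had 48, 130 and 39 and then 290, 407 and 89 reads per 20 M (1.70, SE 0.27), with mouse 3 lowest in both fractions. Falls of the same kind included Fgfr2, a fibroblast growth factor receptor, with 1120, 957 and 959 and then 673, 607 and 668 (-0.72, SE 0.10), and Ctnnbip1, an inhibitor of beta-catenin, with 783, 684 and 516 and then 391, 357 and 397 (-0.85, SE 0.15). Slc22a7, an organic anion transporter, fell by 0.77, and Lepr, the leptin receptor, by 0.70.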
